A study of Homo sapiens with 24 samples.

Results

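The genes described here are 10 enzymes that build or edit heparan sulfate chains, out of 60675 genes in the count table. They are NDST1, NDST2, NDST3, EXT1, EXT2, HS2ST1, HS6ST1, HS6ST2, SULF1 and SULF2, and all 10 were found in the table by matching Ensembl identifiers to symbols. NDST3 was chosen by its measured fold change at the high dose of the water extract, where it was among the most strongly lowered genes, and the others because they act on the same chain. The values of that contrast are therefore given as a description without a test for these 10 genes.

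RNA was sequenced from SW1783, a human astrocytoma cell line, 24 h after treatment with extracts of Schisandrae Fructus (SF), the fruit of Schisandra chinensis. The water extract (WESF) was applied at 20, 100 or 500 µg/mL together with its own vehicle group (vehicle A), and the ethanol extract (EESF) at 12.4, 62 or 310 µg/mL together with a second vehicle group (vehicle B). These doses are called low, medium and high, and each of the 8 groups held 3 libraries. Both vehicles are labelled DMSO, and the study describes its vehicle as PBS containing 0.1% DMSO. All 24 libraries came from the same line, and the labels do not say whether the 3 libraries of a group were separate cultures, so p-values measure the spread between these libraries, which may be technical. As each extract was run with its own vehicle in its own batch, extract and batch cannot be told apart. The study chose its top doses from preliminary toxicity tests, with the top EESF dose at a concentration that cost some viability.

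Library totals ran from 18727797 to 32567395 expected counts, with a median of 25177960. In batch A the vehicle libraries held 26447834 to 28461841 counts and the high-dose WESF libraries 20731749 to 24692309. In batch B the order was the other way, with 18727797 to 20465712 in vehicle B and 29659110 to 32567395 at high-dose EESF.

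The line was checked against markers of astrocytes and glioma. VIM, the intermediate filament vimentin, was the most abundant at 4877 CPM (counts per 1000000 of the library size scaled with TMM factors), and 6 of the 12 markers reached 1 CPM in the vehicle libraries, including CD44, SOX9 and the glutamate transporter SLC1A3. The other 6, among them GFAP, S100B, AQP4 and SOX2, were near 0. All 6 fibroblast or mesenchymal markers were above 1 CPM, with COL1A1, a chain of type I collagen, at 3802 CPM. Some markers of the astrocyte and glioma list were thus present, as were all 6 of the fibroblast or mesenchymal list. The defining astrocyte genes were absent or nearly so, and these levels do not by themselves bear out the label astrocytoma.

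Heparan sulfate is a long sugar chain attached to core proteins such as syndecans and glypicans, through which cells hold growth factors and their receptors at the surface. EXT1 and EXT2 form the polymerase that extends the chain, and the NDST enzymes then replace acetyl groups on glucosamine by sulfate, the step on which later modifications depend. HS2ST1 adds sulfate at the 2-O position of the uronic acid, the HS6ST enzymes add it at the 6-O position of glucosamine, and SULF1 and SULF2 remove 6-O-sulfates outside the cell. NDST1 and NDST2 are expressed in most tissues, whereas NDST3 is known mainly from brain and embryo.

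SULF2 was the gene of this set whose level across the 24 libraries was most like that of NDST3. Those libraries include the ones on which NDST3 was chosen, so the likeness is a description without a test. Because of this likeness the promoter sequences of NDST3 and SULF2 are shown first. Each is the 250 bases before the transcription start in RefSeq (GRCh38.p14), at chr4:118034236-118034485 on the plus strand for NDST3 and chr20:47785482-47785731 on the minus strand for SULF2, written 5′ to 3′ with GC boxes in capitals.
NDST3: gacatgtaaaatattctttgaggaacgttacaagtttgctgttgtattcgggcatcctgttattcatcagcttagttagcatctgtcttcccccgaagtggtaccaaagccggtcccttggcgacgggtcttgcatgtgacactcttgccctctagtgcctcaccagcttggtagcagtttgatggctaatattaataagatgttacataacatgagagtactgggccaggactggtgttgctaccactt
SULF2: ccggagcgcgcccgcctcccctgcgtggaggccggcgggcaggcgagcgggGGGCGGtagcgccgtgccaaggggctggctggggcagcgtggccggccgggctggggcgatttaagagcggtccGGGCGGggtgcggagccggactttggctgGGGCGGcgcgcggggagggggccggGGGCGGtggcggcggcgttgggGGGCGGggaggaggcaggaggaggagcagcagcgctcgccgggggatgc

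The 2 windows had little in common. NDST3's was 46% GC with 6 CpG dinucleotides, at percentile 24.8 of all 34943 RefSeq promoter windows of this length, whose median was 58%. SULF2's was 81.2% GC with 34 CpG, at percentile 98.0. A GC box (GGGCGG or its complement CCGCCC) occurred 5 times upstream of SULF2 and not in the NDST3 window, and was held by 42.5% of all windows. Neither window held a CCAAT box (CCAAT or ATTGG, in 32% of windows), a TATA box (TATAAA or TTTATA, in 10.8%) or an E-box (CACGTG, in 6.32%). These are matches of letters on both strands, and RefSeq lists 2 start sites for NDST3 and 4 for SULF2, of which the MANE one is shown.

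NDST3 (ENSG00000164100, chr4:118033618-118258634, plus strand, GRCh38) was a lowly expressed gene that was much lower at both high doses. In vehicle A its 3 libraries were at 7.76, 9.08 and 9.27 CPM, which gave 8.70 ± 0.823 (mean ± SD, n = 3). Low-dose WESF gave 9.53, 9.18 and 7.13 CPM, medium-dose WESF 7.00, 7.15 and 5.96, and high-dose WESF 1.44, 0.636 and 1.19. The 3 high-dose libraries lay below every other library of their batch, and the low-dose libraries overlapped with the vehicle.

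Behind the high-dose WESF values were 34, 13 and 27 counts, against 210 to 250 in vehicle A. The mean of 1.09 ± 0.413 CPM at high-dose WESF corresponded to a log2 fold change of -2.96 (SE 0.18), or 7.80-fold lower, the 15th lowest of 13129 genes tested. This is the value for which the gene was chosen. In these bulk samples fewer cells of a type and less RNA per cell cannot be told apart.

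The EESF libraries were not part of the contrast on which NDST3 was chosen. The 10 genes were, however, chosen with earlier results of these data known. NDST3 was at 9.00, 9.88 and 9.87 CPM in vehicle B, at 8.42, 7.87 and 8.70 with low-dose EESF and at 8.06, 6.87 and 6.81 with medium-dose EESF. At high-dose EESF it was at 1.41, 1.76 and 2.00 CPM, from 40, 55 and 60 counts, and no library overlapped with those of the other EESF doses or vehicle B. NDST3 fell by 2.47 on the log2 scale against vehicle B (SE 0.13, 95% interval -2.76 to -2.18, adjusted p = 4.96e-08, edgeR's quasi-likelihood test), which is 5.54-fold, and it was the 19th lowest of 13092 genes.

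**Figure D1:**
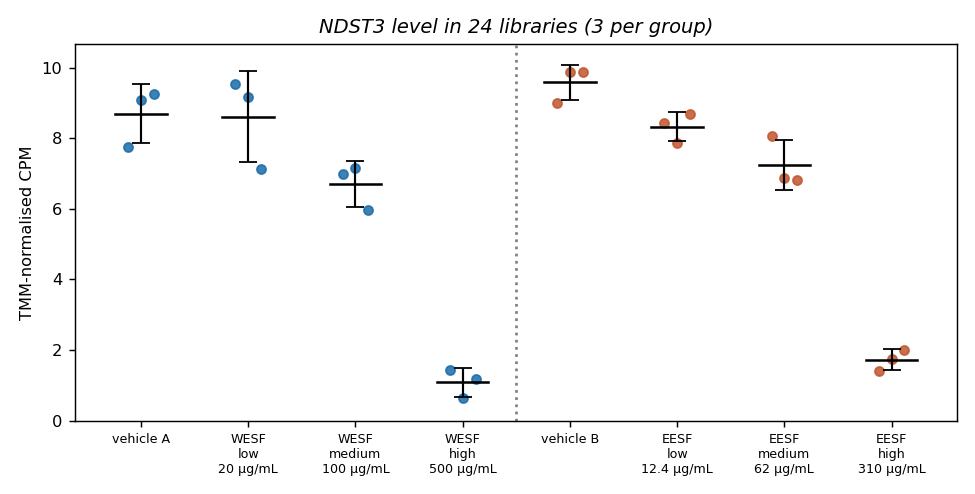
NDST3 level in each of the 24 libraries, in TMM-normalised CPM on the vertical axis and by group on the horizontal axis, with points for libraries and lines for the group mean and SD (n = 3). The 6 high-dose libraries lie between 0.636 and 2.00 CPM, and the other 18 all lie above 5.9 CPM.

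Ordered by mean level, the groups ran from vehicle B (9.58 ± 0.505 CPM) through vehicle A, low-dose WESF, low-dose EESF (8.33 ± 0.420), medium-dose EESF (7.25 ± 0.704) and medium-dose WESF (6.70 ± 0.645) to high-dose EESF (1.72 ± 0.295) and high-dose WESF. The ranges of neighbours in this order overlapped except between medium-dose WESF and high-dose EESF. Within each batch the ranges of the medium- and high-dose groups did not overlap.

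At medium-dose EESF NDST3 fell by 0.40 on the log2 scale against vehicle B (SE 0.10, adjusted p = 0.0133), with no overlap between the groups. This call was lost when vehicle B replicate 2, medium-dose EESF replicate 2 or medium-dose EESF replicate 3 was left out, with adjusted p-values of 0.0644, 0.0522 and 0.0645. At medium-dose WESF the log2 fold change was -0.37 (SE 0.10, 95% interval -0.60 to -0.15) and did not pass the test (adjusted p = 0.059). It did so without vehicle A replicate 1 (adjusted p = 0.0109), and with no filter on low counts (adjusted p = 0.0363). These WESF comparisons reuse the vehicle A libraries on which NDST3 was chosen and are not independent of that choice.

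The low doses did not move NDST3 past the test. The log2 fold change was 0.00 (SE 0.11, adjusted p = 0.999) at low-dose WESF, with a 95% interval from -0.24 to 0.23. It was -0.21 (SE 0.09, adjusted p = 0.135) at low-dose EESF, although all 3 low-dose EESF libraries lay below those of vehicle B.

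Doses of the same extract were also compared without the vehicles. NDST3 fell by 2.26 on the log2 scale from low- to high-dose EESF (SE 0.13, adjusted p = 2.55e-08), which is 4.80-fold. Between low- and medium-dose WESF, none of whose libraries were in the contrast that chose the gene, the log2 fold change was -0.37 (SE 0.12, 95% interval -0.62 to -0.11, adjusted p = 0.148) and the ranges overlapped. Without low-dose WESF replicate 3, which held the lowest NDST3 level of its group, that value was -0.48 with an adjusted p of 0.0304.

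The vehicles of the 2 batches were also set against each other. NDST3 differed by 0.14 on the log2 scale (SE 0.09, adjusted p = 1), and none of the 9 tested enzymes passed the test between vehicle B and vehicle A. Across all 13001 genes 0% were called in either direction, while 371 had an unadjusted p under 0.05 and DESeq2 called 3. With replicate number as a block in the edgeR fit 478 genes were called, among them NDST2 (adjusted p = 0.0493). The replicate numbers were not taken as pairing the libraries.

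NDST1 and NDST2 carry out the same step as NDST3 and were far more abundant. Per exonic length, in TPM (transcripts per 1000000, computed from the expected counts), the level in vehicle A was 86.4 ± 3.12 for NDST1, 17.0 ± 0.596 for NDST2 and 4.11 ± 0.413 for NDST3. NDST3 thus made up 3.82% ± 0.257 of the summed NDST level in vehicle A and 4.17% ± 0.156 in vehicle B.

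NDST1 (chr5:150485818-150558211) was lower at both high doses. It stood at 246, 255 and 261 CPM in vehicle A and at 163, 157 and 157 CPM with high-dose WESF, a log2 fold change of -0.67 (SE 0.04). In batch B it went from 244, 248 and 258 CPM in vehicle B to 171, 159 and 147 CPM with high-dose EESF and fell by 0.66 on the log2 scale (SE 0.06, adjusted p = 2.38e-06). The high-dose libraries lay below all vehicle libraries in both batches.

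NDST1 was also called at lower doses. It fell by 0.20 on the log2 scale at medium-dose WESF (SE 0.04, adjusted p = 0.014), by 0.25 at medium-dose EESF (SE 0.05, adjusted p = 0.00265) and by 0.17 at low-dose EESF (SE 0.04, adjusted p = 0.0243). The value at medium-dose WESF lost its call without vehicle A replicate 2, medium-dose WESF replicate 2 or medium-dose WESF replicate 3 (adjusted p = 0.0921, 0.0545 and 0.115), and also with a replicate block (0.0591). The value at low-dose EESF lost its call in 5 of the 6 fits that left out a library, all but the one without vehicle B replicate 1, with adjusted p-values of 0.0580 to 0.117, and also with all 4 groups of the batch in the fit (0.0762).

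NDST2 (chr10:73801911-73811798) did not follow NDST1 and NDST3 past the test at any dose tested. It was at 24.0, 24.2 and 25.2 CPM in vehicle A and at 28.1, 23.1 and 25.0 with high-dose WESF, where the groups overlapped. In batch B it was at 26.7, 27.3 and 27.5 CPM in vehicle B and at 25.1, 27.0 and 21.0 with high-dose EESF, a log2 fold change of -0.16 (SE 0.09, 95% interval -0.35 to 0.03, adjusted p = 0.13). The spread at high-dose EESF mattered here, since the value was -0.24 with an adjusted p of 0.0363 without high-dose EESF replicate 2. NDST2 shares 82.9% of its exonic bases with a readthrough gene on the same strand, so reads could have been split between them and its level is uncertain.

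The make-up of the NDST family at the high doses followed from these values. NDST3 went from 3.82% to 0.706% ± 0.246 of the summed level per length with high-dose WESF and from 4.17% to 1.15% ± 0.284 with high-dose EESF. NDST2 went from 15.8% to 24.4% and from 17.4% to 23.6%, and NDST1 from 80.4% to 74.9% and from 78.4% to 75.3%. The summed NDST level per length itself went from 108 ± 4.07 to 76.1 ± 1.07 TPM in batch A and from 104 ± 3.71 to 66.1 ± 5.41 TPM in batch B. No test was made on these shares and sums.

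The polymerase subunits changed little. EXT1 (chr8:117794490-118111826) was at 155, 156 and 158 CPM in vehicle B and at 140, 127 and 127 with high-dose EESF, and fell by 0.25 on the log2 scale (SE 0.05, adjusted p = 0.00161). EXT2 (chr11:44095648-44251962) was at 190, 185 and 181 CPM and then at 171, 163 and 153, and fell by 0.19 (SE 0.05, adjusted p = 0.00846). In both cases the groups did not overlap, and both falls were below the 1.5-fold size that the study asked of a differentially expressed gene (DEG). At high-dose WESF the log2 fold changes were -0.11 (SE 0.04) for EXT1 and -0.09 (SE 0.04) for EXT2.

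Of the O-sulfotransferases, HS2ST1 (chr1:86914635-87109982) was lower with both extracts. It was at 115, 119 and 123 CPM in vehicle A and at 93.0, 92.6 and 91.2 with high-dose WESF, a log2 fold change of -0.36 (SE 0.04). Against 118, 126 and 130 CPM in vehicle B it stood at 101, 83.1 and 85.1 with high-dose EESF, where it fell by 0.48 on the log2 scale (SE 0.07, adjusted p = 0.000149).

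HS2ST1 was already called at the lower EESF doses. It fell by 0.23 at the medium dose (SE 0.05, adjusted p = 0.00507) and by 0.24 at the low dose (SE 0.05, adjusted p = 0.0116), so the low and medium values were alike in size. At the low dose the call was lost without vehicle B replicate 2, low-dose EESF replicate 1 or low-dose EESF replicate 3 (adjusted p = 0.0712, 0.0525 and 0.0753). At medium-dose WESF the log2 fold change was -0.10 (SE 0.05, 95% interval -0.21 to 0.02, adjusted p = 0.34).

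HS6ST1 (chr2:128236716-128318868) was not called in any of the comparisons tested. It was at 31.3, 29.5 and 28.2 CPM in vehicle A and at 27.7, 26.9 and 29.0 with high-dose WESF. In batch B it was at 29.0, 27.5 and 30.1 CPM in vehicle B and at 30.6, 31.1 and 29.3 with high-dose EESF, and the groups overlapped in both batches. The 95% interval of its log2 fold change at high-dose EESF ran from -0.06 to 0.21 (adjusted p = 0.341).

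HS6ST2 (chrX:132626015-132961395), the other 6-O-sulfotransferase of the set, was not detectably expressed. It had 10 counts over all 24 libraries, at most 2 in a library and 0 in 16, and it did not pass the filter on low counts in any comparison. A count of 0 allows up to 3 counts, or 0.160 CPM in the shallowest library, by counting error alone.

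The sulfatases, which act on the finished chain, were dominated by SULF2. It made up 95.4% ± 0.210 of the summed SULF level per length in vehicle A, at 56.5 ± 3.21 TPM against 2.69 ± 0.0199 TPM for SULF1. SULF2 (chr20:47656197-47786616) was at 117, 130 and 118 CPM in vehicle A and at 66.8, 64.3 and 63.0 with high-dose WESF, a log2 fold change of -0.91 (SE 0.05). In batch B it went from 117, 124 and 113 CPM to 70.6, 75.9 and 74.1 and fell by 0.69 on the log2 scale (SE 0.05, adjusted p = 7.44e-07), or 1.61-fold. Libraries of the low and medium doses stayed above 100 CPM, so that in both batches the high-dose libraries stood clear of all others.

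SULF2 did not pass the test at the medium doses, with log2 fold changes of -0.06 (SE 0.05, adjusted p = 0.488) for WESF and -0.10 (SE 0.05, adjusted p = 0.215) for EESF. It shares 3.54% of its exonic bases with NCOA3 on the opposite strand, and the strand setting of the counting is not given in the sources used here.

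SULF1 (chr8:69466624-69660915) was at 7.25, 8.45 and 7.36 CPM in vehicle B and at 7.12, 5.72 and 5.09 with high-dose EESF. It fell by 0.37 on the log2 scale (SE 0.13, adjusted p = 0.0277). The call was lost without vehicle B replicate 2 (adjusted p = 0.118), high-dose EESF replicate 2 (0.0846) or high-dose EESF replicate 3 (0.0972). At high-dose WESF it was at 6.50, 6.21 and 6.69 CPM against 7.79, 7.88 and 7.70 in vehicle A, a log2 fold change of -0.26 (SE 0.09).

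**Figure D2:**
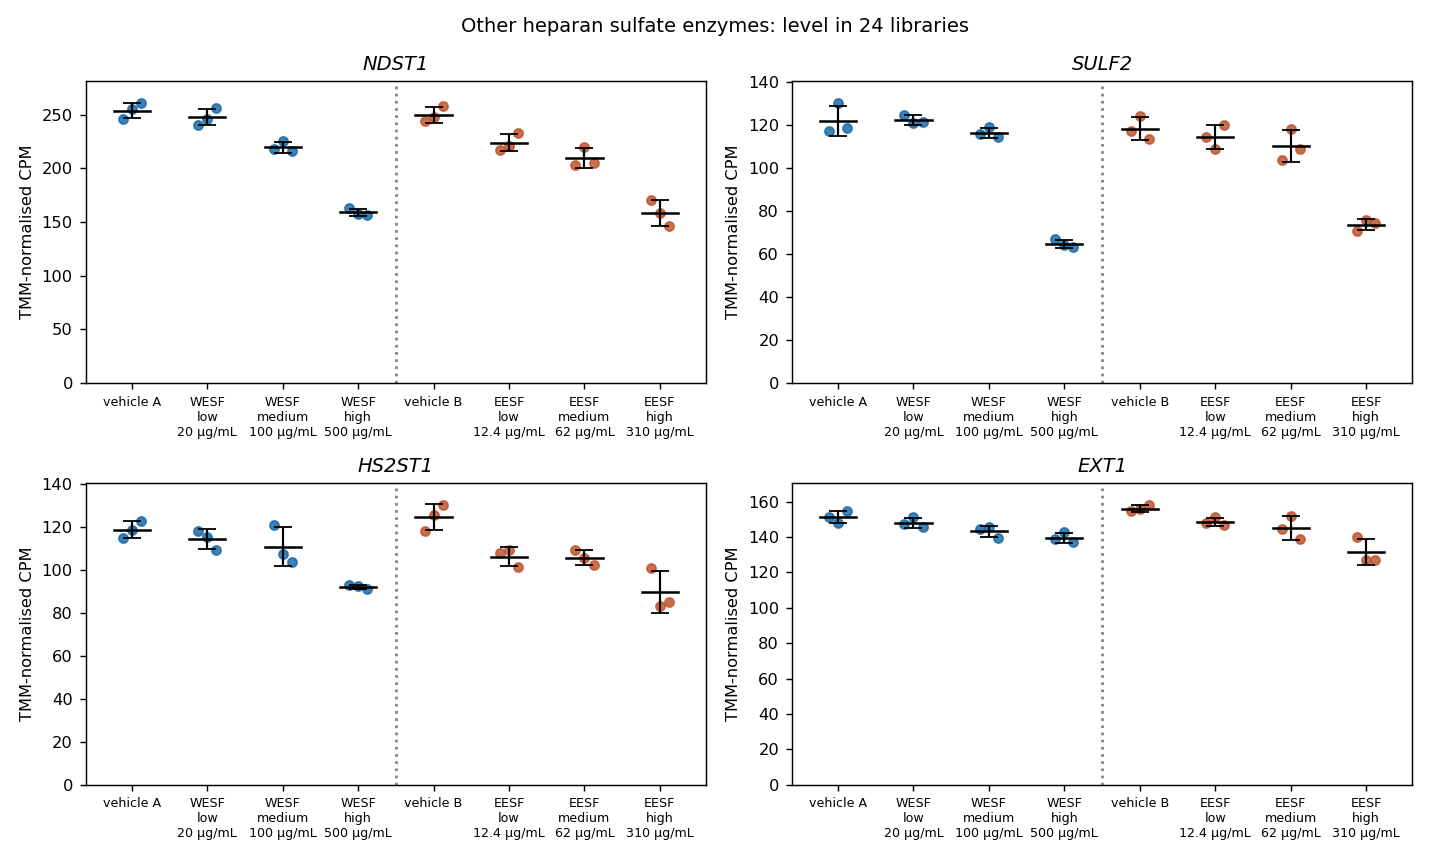
Levels of NDST1, SULF2, HS2ST1 and EXT1 in each of the 24 libraries, in TMM-normalised CPM on the vertical axes and by group on the horizontal axes, with points for libraries and lines for the mean and SD (n = 3). The high-dose groups are lowest in all 4 panels, clearly so for NDST1 and SULF2 and by a small margin for EXT1.

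At high-dose EESF 7 of the 9 tested enzymes fell and none rose, where 28.7% of all 13092 genes tested fell. NDST3, SULF2 and NDST1 also passed the 1.5-fold size of a DEG, as did 9.17% of all genes in this direction. The median log2 fold change of the 9 was -0.37, against 0.01 over all genes tested. Among the 7 that fell, log2 fold changes ran from -0.19 for EXT2 to -2.47 for NDST3, while NDST2 and HS6ST1 did not pass the test and HS6ST2 could not be tested.

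At high-dose WESF 7 of the 9 were lower with no overlap between the groups, as were 35.9% of all 13129 genes, and the median log2 fold change was -0.26 against 0.00. These counts belong to the contrast that chose NDST3 and carry no test.

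At the lower doses fewer enzymes were called. At medium-dose EESF NDST1, NDST3 and HS2ST1 fell, 3 of 9, where 8.48% of all genes fell. At low-dose EESF NDST1 and HS2ST1 fell, 2 of 9, where 6.24% of all genes fell. At medium-dose WESF NDST1 fell, 1 of 9, where 2.2% of all genes fell. These shares over all genes depended on single libraries, and without 1 library ran from 3.57% to 12.6% at medium-dose EESF, from 1.06% to 13.2% at low-dose EESF and from 0.325% to 6.69% at medium-dose WESF.

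At low-dose WESF 0 of 9 were called and 0% of 13131 genes, while 470 had an unadjusted p under 0.05 and DESeq2 called 1. Between medium- and low-dose WESF 0 of 9 were called, where 0.936% of genes were called in either direction. DESeq2 called 1 enzyme in this comparison, NDST1 (adjusted p = 0.0156). From low- to high-dose EESF 7 of 9 fell, where 28.4% of genes fell. Of these, EXT2 (adjusted p = 0.0454) lost its call in 5 of 6 fits that left out a library (all but the one without high-dose EESF replicate 1), and so did SULF1 (adjusted p = 0.0386), whose groups overlapped. EXT2 also lost its call with no filter on low counts (adjusted p = 0.0550), and SULF1 under DESeq2 (adjusted p = 0.0710).

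**Figure D3:**
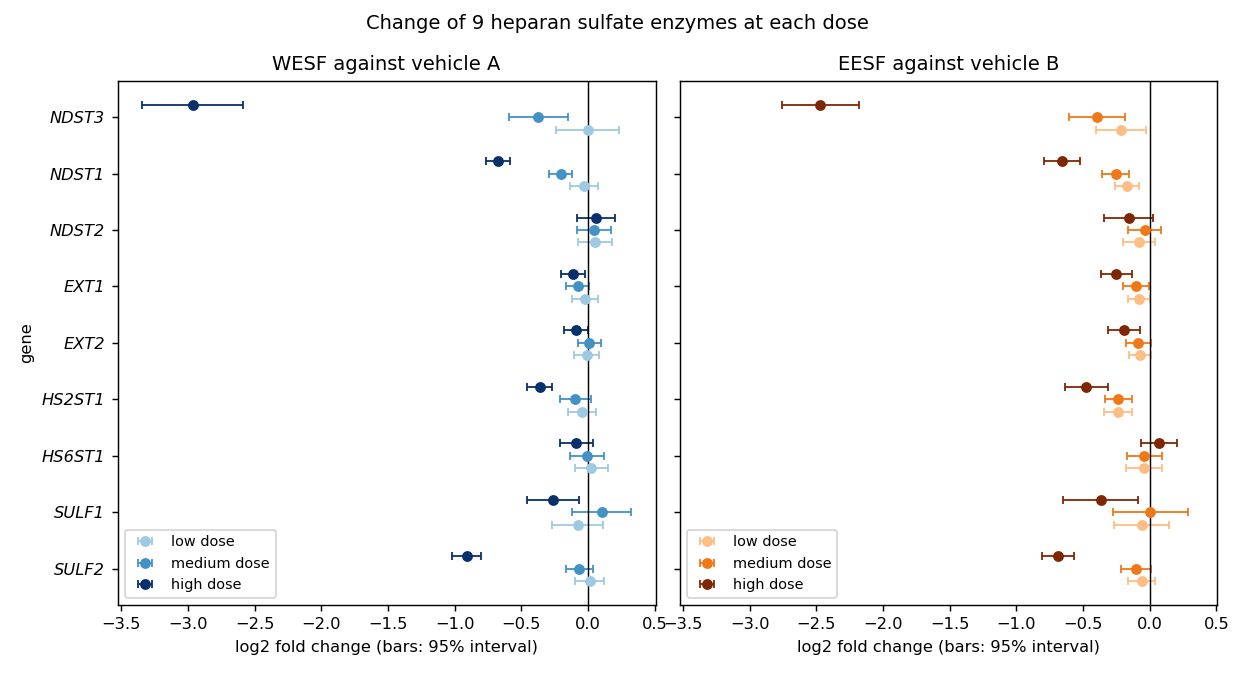
Log2 fold change against the batch's vehicle (horizontal axis) for the 9 tested enzymes (vertical axis) at 3 doses of WESF (left) and EESF (right), with bars for 95% intervals. NDST3 stands apart at the high doses at -2.96 and -2.47, while the intervals of NDST2 and HS6ST1 include 0 at every dose.

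The 2 extracts were compared through the difference between their log2 fold changes, with doses that differ in mass. At the medium doses (100 µg/mL WESF and 62 µg/mL EESF) none of the 9 enzymes passed the test, where 0.203% of 13276 genes did, and the difference for NDST3 was -0.03 (SE 0.14, 95% interval -0.33 to 0.28, adjusted p = 0.962). Across all 13376 genes 26% differed between the extracts at the high doses. The high-dose differences of the enzymes contain the contrast that chose NDST3, so they carry no test and no direction is read from them. The difference was 0.50 (SE 0.26) for NDST3, 0.23 (SE 0.07) for SULF2 and 0.02 (SE 0.07) for NDST1.

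Some cell type markers moved with the high doses as well, and their part in the NDST3 result was not tested. The summed level of the 6 neuron markers, 3 of which reached 1 CPM in the vehicles, was 157 to 161 CPM in vehicle A and 77.4 to 84.9 CPM with high-dose WESF, and 156 to 166 CPM in vehicle B against 98.0 to 107 CPM with high-dose EESF. TUBB3, a tubulin, was the most abundant of them and went from 105 to 57.0 CPM and from 104 to 78.1 CPM. SNAP25 went from 28.2 to 8.83 CPM and from 28.9 to 13.5 CPM. SYT1 went from 25.3 to 13.5 CPM and from 27.0 to 11.9 CPM. GAP43 and STMN2 were near 0. RBFOX3, the neuronal nuclear protein, stayed under 1 CPM and went the other way, from 0.113 to 0.708 CPM and from 0.138 to 0.563 CPM. The summed astrocyte and glioma list changed less, from 7811 to 6593 CPM in batch A and from 7943 to 7430 CPM in batch B. Of its members above 1 CPM, CD44 went from 2845 to 1722 CPM and from 2893 to 2076 CPM. SLC1A3 went from 31.9 to 10.4 CPM and from 31.7 to 12.1 CPM, and SOX9 and NES were also lower at both high doses. The transcription factor NFIA went the other way, from 7.56 to 9.58 CPM and from 7.84 to 9.44 CPM. VIM went from 4836 to 4796 CPM and from 4918 to 5278 CPM. The summed immune list, mostly CD68, went from 196 to 226 CPM and from 214 to 274 CPM, while PTPRC, the leukocyte antigen CD45, went from 10.2 to 2.12 CPM and from 9.80 to 1.88 CPM, and AIF1 was at or near 0. The fibroblast or mesenchymal sum went from 6203 to 5433 CPM and from 6160 to 5762 CPM, the oligodendrocyte lineage sum from 27.4 to 26.1 CPM and from 26.2 to 22.8 CPM, and the endothelial sum from 35.7 to 38.3 CPM and from 34.7 to 41.7 CPM, and in the first of these THY1 was lower and COL1A2 higher at both high doses. The oligodendrocyte lineage sum also held opposite members: MBP, a myelin protein, went from 6.82 to 12.6 CPM and from 6.59 to 9.66 CPM, and PDGFRA, a growth factor receptor, from 20.3 to 12.8 CPM and from 19.2 to 12.7 CPM. OLIG2, a transcription factor of that lineage, stayed under 1 CPM, at 0.0503 and then 0.471 CPM in batch A and at 0.0715 and then 0.339 CPM in batch B.

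The remaining enzymes that polymerise, epimerise or sulfate the heparan sulfate chain were described as a further list. Of 13 genes in this list 7 were tested, of which 4 fell and 0 rose at high-dose WESF, where 34.6% of all genes fell and 34.3% rose. At high-dose EESF 5 fell and 1 rose, where 28.7% of all genes fell and 29.3% rose. Their median log2 fold changes were -0.44 and -0.56. NDST4, the remaining family member, was listed at 0 in both vehicles.

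HS3ST1, a 3-O-sulfotransferase that helps to form the antithrombin-binding site, fell most within this list, by 2.43 on the log2 scale with high-dose WESF (SE 0.23, adjusted p = 6.69e-08) and by 1.43 with high-dose EESF (SE 0.20, adjusted p = 5.88e-05). It was lowly expressed, at 2.77 CPM in vehicle A. EXTL2, an EXT-like glycosyltransferase, fell by 1.10 and 0.88. HS6ST3, the 6-O-sulfotransferase not among the 10, fell by 0.75 and 1.01.

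The enzymes of the linkage region, the short sugar stretch that joins heparan and chondroitin sulfate to their core proteins, were called in both directions. All 7 were tested, of which 4 rose and 2 fell at high-dose WESF and 5 rose and 2 fell at high-dose EESF, where 34.3% and 29.3% of all genes rose and 34.6% and 28.7% fell, with median log2 fold changes of 0.37 and 0.33. XYLT2, a xylosyltransferase that starts the linkage, rose by 0.69 and 0.63 on the log2 scale (adjusted p = 6.51e-10 and 2.95e-06). XYLT1, the other xylosyltransferase, named after its values were seen, fell by 0.53 and 0.46 (adjusted p = 4.04e-08 and 0.000254). B4GALT7, which adds the first galactose, rose by 0.39 and 0.61. B3GALT6, which adds the second, fell by 0.68 and 0.25.

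Another list held genes that supply sulfate donor and UDP-sugars. Of 11 tested genes 8 fell, 2 rose and 1 was not called at high-dose WESF, and 6 fell, 1 rose and 4 were not called at high-dose EESF, where 34.6% and 28.7% of all genes fell and 34.3% and 29.3% rose, with medians of -0.22 and -0.19. SLC35D1, a transporter of UDP-sugars, fell by 0.38 and 0.52, and SLC26A2, a sulfate transporter, by 0.26 and 0.44. BPNT2, a phosphatase that clears the by-product of sulfation, rose by 0.44 with high-dose WESF (adjusted p = 8.78e-08) and had a log2 fold change of 0.08 with high-dose EESF (adjusted p = 0.287).

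Of the 14 core proteins 13 were tested, of which 7 fell, 2 rose and 4 were not called at each high dose, where 34.6% and 28.7% of all genes fell and 34.3% and 29.3% rose, with medians of -0.12 and -0.21. GPC2, a glypican, rose by 1.11 with high-dose WESF (SE 0.09, adjusted p = 7.53e-09) and by 1.3 with high-dose EESF (SE 0.10, adjusted p = 7.21e-07). TGFBR3, the part-time proteoglycan betaglycan, fell by 0.69 and 0.84. GPC4, another glypican, fell by 0.34 (adjusted p = 0.0162) and 0.63, the first of which lost its call under DESeq2 (adjusted p = 0.0577) and without vehicle A replicate 2 or high-dose WESF replicate 2 (adjusted p = 0.0537 and 0.0581).

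In the list of degrading enzymes 9 of 10 were tested. At high-dose WESF 4 fell and 0 rose, and at high-dose EESF 4 fell and 3 rose, where 34.6% and 28.7% of all genes fell and 34.3% and 29.3% rose, with medians of -0.17 and -0.23. SGSH, which removes N-linked sulfate in lysosomes, fell by 0.87 and 0.60, and HGSNAT, which acetylates the freed glucosamine, by 0.66 and 0.47. HPSE, the heparanase that cuts the chain, fell by 0.39 with high-dose WESF (adjusted p = 0.0131) but not without vehicle A replicate 3 (adjusted p = 0.0593). With high-dose EESF it had a log2 fold change of -0.34 (adjusted p = 0.0532, or 0.0199 without vehicle B replicate 2). That value also passed with all 4 groups of the batch in the fit (adjusted p = 0.0471) and with DESeq2 size factors (0.0497).

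Chondroitin sulfate, the sister chain built on the same linkage, had no common direction. Of 15 tested genes 7 rose and 6 fell at high-dose WESF and 5 rose and 7 fell at high-dose EESF, where 34.6% and 28.7% of all genes fell and 34.3% and 29.3% rose, with medians of -0.05 and 0.02. DSEL, an epimerase that makes dermatan sulfate, fell by 1.56 (SE 0.05, adjusted p = 2.38e-13) and 1.22 (SE 0.07, adjusted p = 9.24e-08). CHPF2, a chain polymerising factor, fell by 0.97 and 0.57, and CHST12, a 4-O-sulfotransferase, by 0.80 and 0.36.

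Growth factors that bind heparan sulfate and the FGF receptors act at the cell surface with these chains. Of 19 genes 16 were tested, and 8 rose, 3 fell and 5 were not called at each high dose, where 34.3% (WESF) and 29.3% (EESF) of all genes rose and 34.6% and 28.7% fell, with medians of 0.42 and 0.27. VEGFA, the endothelial growth factor, rose by 1.14 with high-dose WESF (SE 0.04, adjusted p = 8.74e-13) and by 0.80 with high-dose EESF (SE 0.05, adjusted p = 1.22e-07). FGF5 rose by 1.19 and 0.66. GDNF, at 0.537 CPM in vehicle A, rose by 1.21 with high-dose WESF (adjusted p = 0.000602) and had a log2 fold change of 0.69 with high-dose EESF (adjusted p = 0.0671, or 0.0338 without vehicle B replicate 2). Of the FGF receptors, FGFR3 fell by 0.91 with high-dose WESF (adjusted p = 3.39e-05) and by 0.70 with high-dose EESF (adjusted p = 0.00132). FGFR1 fell by 0.22 with high-dose WESF (adjusted p = 0.000149) and by 0.12 with high-dose EESF (adjusted p = 0.0426), a call that was lost without any single vehicle B library (adjusted p = 0.0698, 0.0723 and 0.102) and without high-dose EESF replicate 2 or 3 (0.0799 and 0.0986). FGFRL1 went the other way with high-dose EESF and rose by 0.24 (adjusted p = 0.00578). With high-dose WESF its log2 fold change was -0.06 (adjusted p = 0.308). FGFR4 was not called at either high dose, with log2 fold changes of 0.48 and 0.24. These receptors were named after their values were seen, and they had no common direction.

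**Figure D4:**
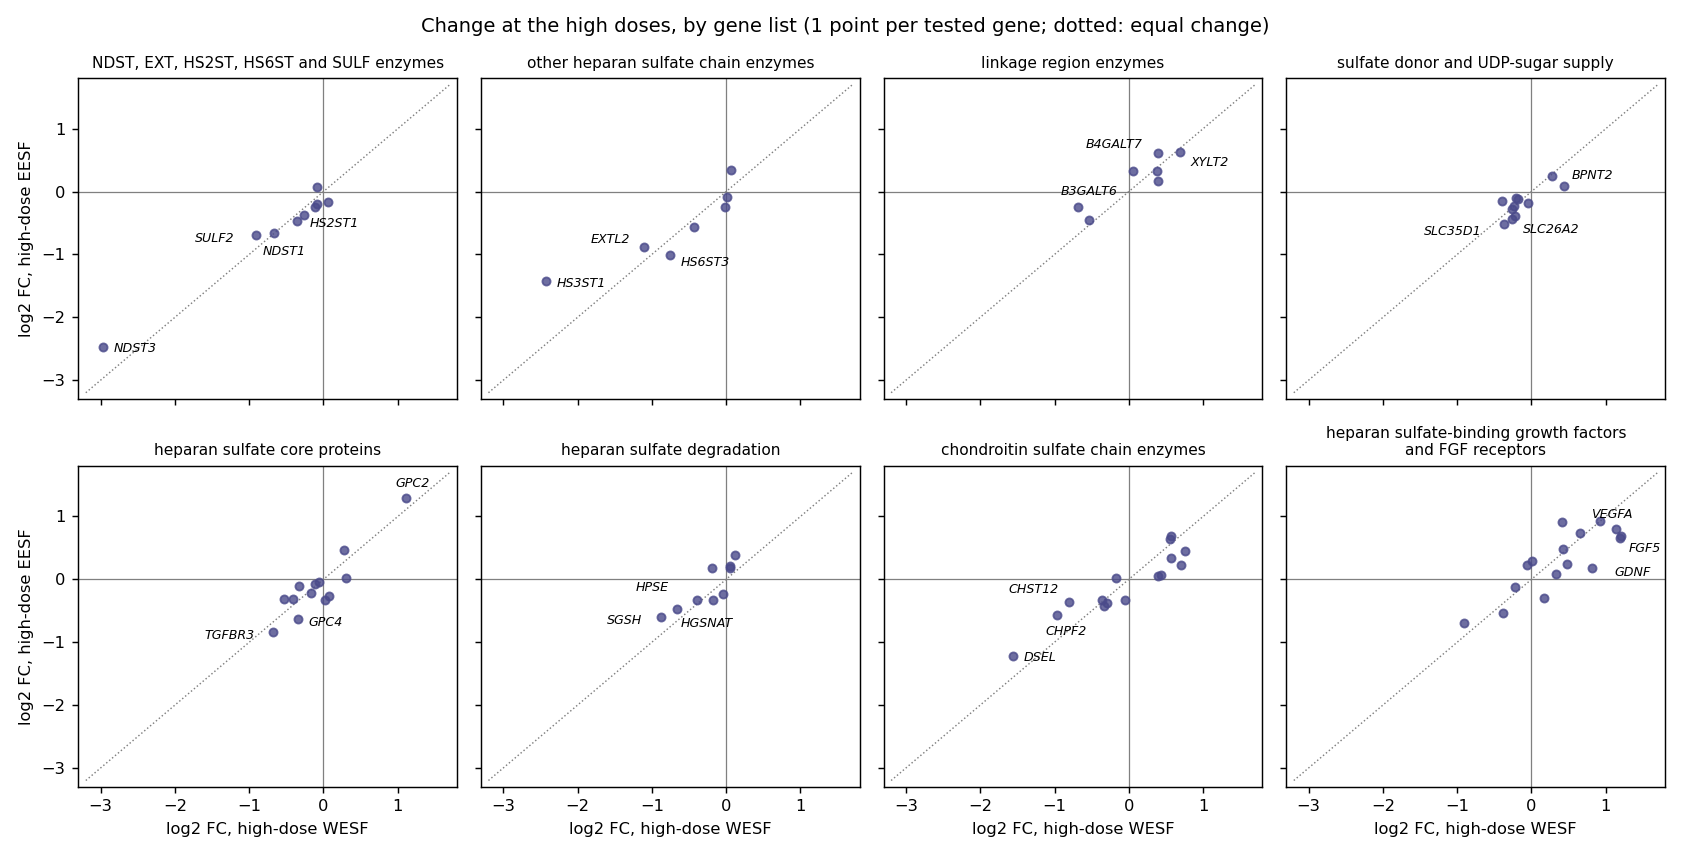
Log2 fold change at high-dose WESF against vehicle A (horizontal axis) and at high-dose EESF against vehicle B (vertical axis), 1 point per tested gene and 1 panel per gene list, with a dotted line where both are equal. NDST3 lies lowest at -2.96 and -2.47, HS3ST1 next at -2.43 and -1.43, and GPC2 and VEGFA lie in the upper right.

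The genes whose levels were most like NDST3's were found by Pearson correlation over the 24 libraries, after subtracting the mean of the batch's vehicle, among 12244 genes. The 5 highest were TBCEL (r = 0.987), CAV1 (0.986), PPP4R1 (0.986), POLA1 (0.984) and FAM13C (0.984). CAV1 is the main protein of caveolae, PPP4R1 a regulatory subunit of a protein phosphatase and POLA1 the catalytic subunit of DNA polymerase alpha. All points share the high-dose libraries, where NDST3 sits far below its level in the others. The 24 libraries include those on which NDST3 was chosen. The correlations and orders given here and for the heparan sulfate set are therefore a description and carry no test.

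The size of the change differed among these genes. FAM13C was lower by log2 fold changes of -2.82 and -2.11 at high-dose WESF and EESF, close in size to NDST3, while CAV1 was at -1.02 and -0.80 and PPP4R1 at -0.83 and -0.68. Within the heparan sulfate set SULF2 was the most like NDST3 (r = 0.977, 38th of 12243 genes), followed by NDST1 (r = 0.934, 641st) and HS2ST1 (r = 0.781). EXT2, EXT1 and SULF1 had r of 0.664, 0.661 and 0.606. NDST2 (r = 0.193) and HS6ST1 (r = 0.068) were the least alike.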

How the data were processed

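SW1783 RNA was sequenced as 24 libraries in 8 groups of 3. The authors deposited RSEM expected counts per gene, with decimals in 10.9% of values and no normalisation. Per the labels and methods, reads were checked with FastQC 0.11.9, trimmed with Trim Galore 0.6.6, aligned with STAR 2.7.9a and quantified with RSEM 1.3.3 on a GRCh38 annotation. RSEM splits reads that fit several genes, so overlapping genes are uncertain. RSEM's strand setting is not given in the sources used here.

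Counts were rounded, restricted to protein-coding genes of GENCODE v44 (19586 of the table's genes) and filtered with filterByExpr. A fit held only the 6 libraries compared, or 12 with an interaction term for the difference between extracts, in edgeR 4.0.16 (TMM, quasi-likelihood test, R 4.3.3). Benjamini-Hochberg adjustment ran over all genes tested, and a gene rose or fell where adjusted p was under 0.05. A DEG also changed beyond 1.5-fold. SEs were taken from the F statistic. DESeq2 1.42.0, DESeq2 size factors, no filter, all genes of the table, all 4 groups of a batch, a replicate block and leaving out each library were alternatives. Replicates differed by more than sampling noise (chi-square per degree of freedom 2.02 to 15.5), so none were merged.

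The 10 genes and the other lists were chosen with earlier results of these data known. From each of the 7 other lists up to 3 genes are named, those with the largest change among genes called in either high-dose comparison. Genes like NDST3 were the 5 with the highest r among genes tested at all doses with a mean of at least 1 CPM.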

Additional observations from a re-analysis of the deposited data

Results flagged for a closer look

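Among the 21 genes named from the wider lists, 10 passed the threshold of the interaction term at the high dose (EESF change minus WESF change, log2), as did 26% of all 13376 genes. These genes were named for the size of their change in one of the high-dose contrasts that make up this difference, so the values are a description and carry no test. Extract and batch cannot be told apart, and the doses differ in mass.

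HS3ST1 differed by 1.00, B3GALT6 by 0.43, SGSH by 0.27 and HGSNAT by 0.19, each with the smaller decrease in EESF. The same held for the chondroitin sulfate enzymes DSEL at 0.35, CHPF2 at 0.40 and CHST12 at 0.44. FGF5 at -0.52 and VEGFA at -0.34 had the smaller increase with EESF, and BPNT2 at -0.36 rose with WESF but was not called with EESF.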

How the results depend on the processing

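The fall of NDST3 at high-dose EESF kept its direction and its call in every alternative and in every fit that left out a library (adjusted p at most 2.51e-06), and its decrease at high-dose WESF ranged from -3.23 to -2.72 without single libraries. The number of enzymes called (of 9) varied at lower doses. At medium-dose WESF it was 1, but 2 with no filter on low counts, 0 with the replicate block and 0 to 2 without single libraries. At low-dose EESF it was 2, but 1 with all 4 groups in the fit and 0 to 2 without single libraries. Between medium- and low-dose WESF it was 0, but 1 with DESeq2, 1 with no filter and 0 to 1 without single libraries. At high-dose EESF it was 6 to 7 without single libraries, at medium-dose EESF 2 to 3, and from low- to high-dose EESF 5 to 7. Of the 5 genes most like NDST3, 2 were shared with the list by Spearman's rho and 2 with the list without vehicle centring. The cause of these shifts was not tested.

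Without single libraries the log2 fold change of NDST3 at low-dose WESF ran from -0.080 to 0.107 and turned positive in 3 fits (0.032, 0.040 and 0.107). Its difference between extracts at the medium dose ran from -0.126 to 0.050 and turned positive in 5 fits (0.050, 0.0034, 0.021, 0.0090 and 0.014). NDST2 at high-dose WESF ran from -0.024 (without high-dose WESF replicate 1) to 0.119.

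Deviations of libraries with the same replicate number had r from -0.28 to 0.30, against -0.23 to 0.30 for other numbers. In 4 comparisons all 3 pairs were positive (0.052 to 0.300 between the vehicles, 0.079 to 0.134 between the medium doses and, against vehicle B, 0.036 to 0.064 for low-dose EESF and 0.015 to 0.050 for medium-dose EESF), but in none was every pair over 0.1, so the numbers were not taken as pairing the libraries. With the replicate block the count of all genes called went from 537 to 185 at medium-dose WESF, from 0 to 478 between the vehicles (1 enzyme, NDST2, adjusted p = 0.0493) and from 27 to 70 in the medium-dose difference between extracts, and EXT2 lost its call from low- to high-dose EESF (adjusted p = 0.0645), as did FGFR1 at high-dose EESF (0.137, and 0.0566 with no filter on low counts). Under the other settings that kept all libraries, counts of all genes moved by over 1.5 times for low-dose EESF (1206, or 770 with all 4 groups), medium- against low-dose WESF (122, or 244 with no filter and 63 with all genes of the table), the medium-dose difference (27, or 141 with DESeq2 and 94 with no filter), low-dose WESF (0, or 1 with DESeq2 and 3 with no filter) and the vehicles (0, or 3 with DESeq2 and 4 with no filter). Without single libraries the counts of all genes ran from 72 (without medium-dose WESF replicate 3) to 1560 (without vehicle A replicate 1) at medium-dose WESF, from 791 to 2838 at medium-dose EESF and from 213 to 2679 at low-dose EESF (lowest without vehicle B replicate 2, highest without vehicle B replicate 1), from 6 to 277 for medium- against low-dose WESF, and from 1 to 146 for the medium-dose difference. NDST3 rested on 13 to 60 counts in the high-dose libraries, which limits the precision of its levels there.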
